A study of Drosophila melanogaster with 24 samples.

Results

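Small and large PDF neurons of the adult fly brain were compared for how their transcripts changed between lights-off (ZT12) and lights-on (ZT0). The quantity tested for each array probe set was an interaction, that is, the ZT12 minus ZT0 difference in small PDF neurons minus the same difference in large PDF neurons. It used 10 of the 24 arrays of the series, with 2 arrays per time for small PDF neurons and 3 per time for wild-type large PDF neurons. A positive interaction means that the level moved up more, or down less, toward ZT12 in small than in large neurons. Probe sets with a mean log2 value of 5 or more at ZT12 or ZT0 in both kinds were kept apart from those that reached 5 in one kind only and lay at background in the other.

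The groups were small PDF neurons at ZT12, small PDF neurons at ZT0, large PDF neurons at ZT12 and large PDF neurons at ZT0. All 4 came from adult male and female yw flies kept in 12 h of light and 12 h of darkness, where ZT is the time in hours within that cycle. Neurons were marked with GFP through a driver for Pdf cells and picked by hand, as small or large cells, from about 50 pooled brains per sample. Their RNA, 0.1 to 0.4 ng in total, went through 2 rounds of T7 amplification before hybridisation. The other arrays (large PDF neurons at ZT6 and ZT18, large PDF neurons of per01 flies, and general neurons marked with ELAV) entered the estimate of spread and are named only where their values touch a result.

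PDF neurons are clock neurons that release the neuropeptide PDF. The small kind sends axons into the dorsal brain and keeps locomotor rhythms going in darkness, whereas the large kind arborises in the optic lobe and takes part in light-driven arousal. In both, CLK and CYC activate per, tim, vri, Pdp1 and cwo. PER and TIM repress CLK and CYC, while VRI and PDP1 act on Clk transcription, which sets Clk out of phase with the direct targets.

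The 10 arrays had median log2 values of 3.14 to 3.36, and 33.4 to 35.7% of their probe sets reached 5. Replicates correlated at 0.936 to 0.965 across probe sets. All 6 PDF neuron markers (Pdf, Clk, tim, cry, Fer2 and Hr51) reached 5 on at least 1 array of every group. Pdf lay at 15.50 to 15.99 on all 10 arrays, near the top of the range, where differences can be compressed. Among markers of other cells, the GABA-synthesis gene Gad1 stood at 7.11 on small ZT0 replicate 1 and at or below 2.99 on the other 9 arrays, and the glial gene Gs2 stood at 9.53 on large ZT0 replicate 2. The vesicular acetylcholine transporter VAChT was at 5.41 and 5.18 on the small ZT0 arrays, against 3.29 and 3.20 on the small ZT12 arrays, and at or below 3.31 on all large arrays. ChAT, which makes acetylcholine, did not follow it, at 6.90 and 2.63 in small ZT12, against 2.49 and 7.93 in small ZT0, and at 2.58, 4.82 and 2.87 in large ZT12, against 7.68, 3.58 and 3.27 in large ZT0. The glial marker repo stayed at or below 5.14 and the glutamate transporter VGlut at or below 2.59 on all 10 arrays. Other glial markers did not follow repo. For nrv2 the values were 5.89 and 6.86 in small ZT12, 7.16 and 7.70 in small ZT0, and 4.62 to 6.37 on the large arrays. Gs2 was at 3.44 and 4.15 in small ZT12, against 4.77 and 6.95 in small ZT0. The glial gene moody passed 5 on small ZT0 replicate 2 (5.20) and large ZT12 replicate 3 (5.03). In contrast, alrm, wrapper and Gat stayed at or below 4.72 on all 10 arrays. The summed glial markers ranged from 6.90 to 7.54 in small ZT12, 7.67 to 8.64 in small ZT0, 6.27 to 7.28 in large ZT12 and 6.81 to 9.76 in large ZT0 (log2). The summed fat body markers ranged from 7.06 to 8.12 in small ZT12, 8.98 to 9.23 in small ZT0, 6.89 to 9.37 in large ZT12 and 8.92 to 9.66 in large ZT0. Among them apolpp, the lipophorin gene, was at 3.21 and 7.19 in small ZT12, against 8.40 and 9.05 in small ZT0. Other members did not follow it. Yp3 was at 5.82 and 5.80 in small ZT12, against 4.37 and 4.02 in small ZT0. Yp2 was at 4.30 and 5.01 in small ZT12, against 3.70 and 3.72 in small ZT0. Yp1 overlapped between the times, and Lsp2 and Fbp1 stayed at or below 4.04 on all 10 arrays. The haemocyte marker Pxn was at 9.94 and 6.33 in small ZT12, against 8.17 and 5.89 in small ZT0, and between 10.85 and 11.35 on the large arrays. The rest of the haemocyte list did not follow Pxn. He, NimC1 and Sr-CI stayed at or below 4.51 on all 10 arrays. Hml and eater passed 5 only on large ZT0 replicate 2, at 6.73 and 5.73. The part of other cells in the results below was not tested, and in pools of sorted cells a smaller number of expressing cells and less RNA per cell cannot be told apart.

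The time change differed between the kinds for 58 of 8318 probe sets (0.697%), at an adjusted p below 0.05 in limma's moderated test. The interaction was positive for 20 (0.24%) and negative for 38 (0.457%). The 58 probe sets carry 53 named genes and 5 without a name here. Their interactions ranged from 2.17 to 7.06 in absolute log2 units with a median of 3.55, whereas the median over all probe sets was -0.005. Without small ZT0 replicate 1, the array with Gad1, 57 probe sets were called and the split became 32 positive and 25 negative. With only the 10 arrays in the fit, which leaves fewer arrays to estimate the spread, 5 probe sets were called (4 positive, 1 negative), of which 3 were among the 58, although all 58 had an unadjusted p below 0.05 there.

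The time change of each kind was also read for the 58. The time change was itself called in small neurons alone for 42, in large neurons alone for 8, in both kinds the same way for 2, in both kinds in opposite directions for 1 and in neither for 5. The small neurons had the larger absolute change in 50 of the 58. Small arrays of ZT12 and ZT0 did not overlap for 55 of the 58, against 39.8% of all probe sets. Large arrays of ZT12 and ZT0 did not overlap for 26, against 19.3% of all probe sets. The 58 were picked by their interaction in these same arrays, so these counts and shares are no separate evidence of movement in either kind. Small groups hold fewer arrays than large groups, so their times stay apart more often by chance. The shares of the kinds therefore cannot be compared. In separate tests at each time, small and large neurons differed at ZT0 only for 37, at ZT12 only for 14 and at both times for 7. Across all probe sets the kinds differed for 7.85% at ZT12 and 9.43% at ZT0. The 2 small arrays per time make this kind's change the less precisely known one, with a median standard error (SE) of 0.62, against 0.51 for the large neurons.

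**Figure D1:**
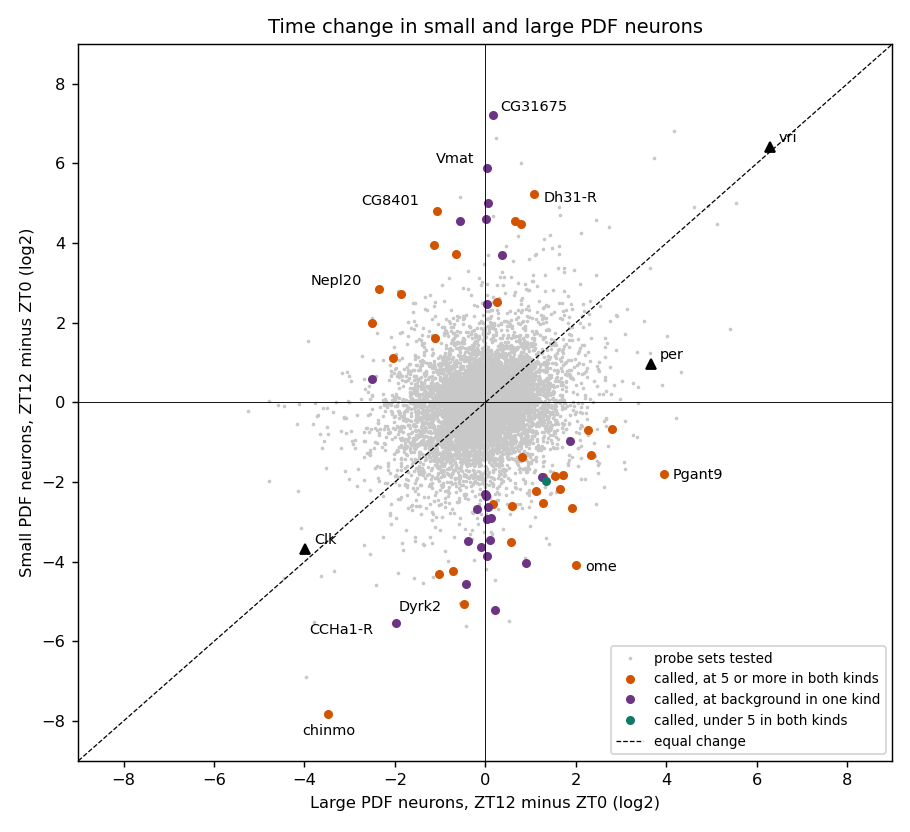
ZT12 minus ZT0 log2 difference in large PDF neurons (x axis) and small PDF neurons (y axis) for the 8318 probe sets tested, with the 58 interaction calls coloured by class and a dashed line of equal change. Most coloured points spread along the vertical axis, where small neurons changed and large neurons moved little, while the triangles for vri and Clk lie near the dashed line and the triangle for per lies to its right.

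Of the 58, 32 reached log2 5 in both kinds (0.504% of 6350), 12 with a positive (0.189%) and 20 with a negative interaction (0.315%). Another 23 reached 5 in small neurons only (4.56% of 504), 7 of them positive (1.39%) and 16 negative (3.17%). There were 2 that reached 5 in large neurons only (0.461% of 434, 0.23% each way) and 1 that reached it in neither (0.0971% of 1030). The class was set by the higher of the ZT12 and ZT0 means on these same arrays. A probe set can thus enter a class through the time at which it is high, so the shares of the classes cannot be compared. With classes set by the mean over both times, 26 calls were at 5 or more in both kinds and 16 at background in one kind. A stricter requirement, a mean of 5 or more in all 4 groups, was met by 5526 probe sets, and 21 of these were called (0.38%), 7 positive and 14 negative. The other 11 of the 32 were under 5 in at least one group, so that their size includes some background. In 24 of the 32 the small and large differences had opposite signs, while 56.8% of all probe sets had the same sign. The 32 were picked by their interaction, so this count is no separate evidence.

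The interaction was called for 0 of 8 core clock genes, where 0.69% of all genes were called, so that 0 is near the background. Clk stood at 8.72 and 8.93 in small ZT12 and at 12.69 and 12.33 in small ZT0, and at 7.42, 4.35 and 5.38 in large ZT12 and at 8.78, 9.98 and 10.34 in large ZT0. ZT12 was below ZT0 on every array of each kind. Clk fell by 3.68 in small neurons and by 3.99 in large neurons, and its interaction was 0.31 ± 0.98 (SE), with a 95% interval of -1.75 to 2.36.

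For vri, the repressor of Clk, the small arrays stood at 14.85 and 14.39 at ZT12, against 8.33 and 8.09 at ZT0. The large arrays stood at 13.73, 14.45 and 13.74 at ZT12, against 6.20, 8.58 and 8.29 at ZT0. The rise was 6.41 in small and 6.29 in large neurons, and the interaction was 0.12 ± 0.89 with an interval of -1.75 to 2.00. These intervals for Clk and vri leave room for differences of several-fold in either direction.

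The transcript of per, the period gene, had the smallest p among core clock genes. It stood at 12.18 and 10.88 in small ZT12, against 10.22 and 10.91 in small ZT0, where the arrays of both times overlap. In large neurons it stood at 11.43, 12.69 and 10.67 at ZT12, against 7.77, 7.87 and 8.18 at ZT0, with no overlap. The large neurons rose by 3.66 ± 0.52 (adjusted p = 0.00155) and the small difference was 0.96 ± 0.63 (adjusted p = 0.607). The interaction, -2.69 ± 0.82 with an interval of -4.42 to -0.97, did not pass after adjustment (adjusted p = 0.17). At ZT0 alone per was higher in small than in large neurons by 2.63 (adjusted p = 0.0073).

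Its partner tim showed 2.20 ± 0.54 in small neurons (adjusted p = 0.0296) and 1.22 ± 0.44 in large neurons (adjusted p = 0.152), with an interaction of 0.98 ± 0.69 (adjusted p = 0.674). For Pdp1, an activator of Clk, the difference was 1.34 ± 0.49 in small (adjusted p = 0.187) and 1.71 ± 0.40 in large neurons (adjusted p = 0.0311), with an interaction of -0.37 ± 0.64. The interactions of cwo (0.15 ± 0.58), cyc (-0.99 ± 0.59), the photoreceptor gene cry (-1.54 ± 1.06) and Pdf (0.13 ± 0.66) were not called either. Among 15 kinases, phosphatases and other modulators of the clock none was called, where 0.69% of all genes were called, so that 0 is near the background. The smallest p there belonged to ctrip, which rose in both kinds, by 3.28 in small and by 1.73 in large neurons (interaction 1.55 ± 0.56, adjusted p = 0.278).

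**Figure D2:**
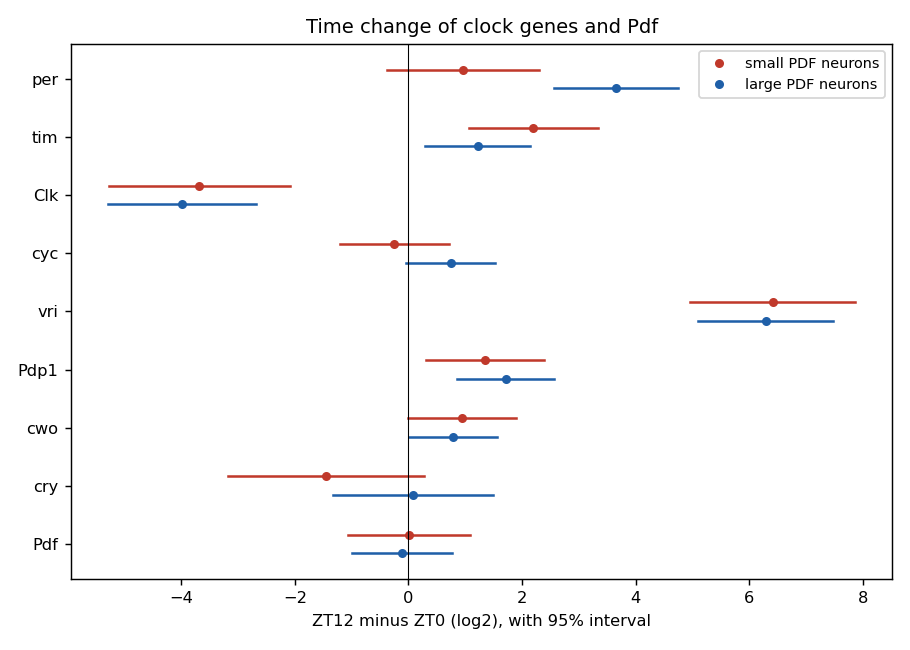
ZT12 minus ZT0 log2 difference with its 95% interval for 8 clock genes and Pdf, small PDF neurons above large PDF neurons in each pair. The vri and Clk pairs overlap almost fully, and the per pair is the most separated, at 0.96 in small and 3.66 in large neurons.

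Beyond the clock genes, some changes were shared. The time change was called for 282 probe sets in small neurons (3.39%), of which 114 rose (1.37%) and 168 fell (2.02%) toward ZT12, and for 182 in large neurons (2.19%), of which 82 rose (0.986%) and 100 fell (1.2%). Of these, 43 were called in both kinds, which is 15.2% of the small and 23.6% of the large calls. Of the 43, 18 rose in both, 24 fell in both and 1 went in opposite directions. Without small ZT0 replicate 2 the small count was 133, without small ZT12 replicate 1 it was 156 and without small ZT0 replicate 1 it was 166. Without large ZT0 replicate 3 the large count was 116. The same sign in the other kind was found for 217 of the 282 small calls (77.0%) and 140 of the 182 large calls (76.9%), against 56.8% of all probe sets.

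The 35 named genes behind the shared calls include the following. Irk1, an inward rectifier potassium channel, was at 11.67 and 11.00 in small ZT12 against 6.62 and 6.04 in small ZT0, and at 9.62, 10.09 and 10.47 in large ZT12 against 6.12, 2.98 and 4.48 in large ZT0. It rose by 5.01 in small and by 5.53 in large neurons. CG14086 rose by 4.92 in each kind, although both ZT0 means lay at background (2.52 in small and 2.22 in large neurons), so that these sizes include background. CG7272 rose by 4.92 in small and 4.62 in large neurons, and Sidpn, a relative of the repressor gene deadpan, by 4.48 in small and 5.11 in large neurons. The phosphodiesterase gene Pde11 fell by 4.42 in small and by 4.46 in large neurons. None of these was called in the interaction. With each of the 35 counted by its brightest probe set, the interaction was called for 3, which are chinmo, CCHa1-R and Nepl20 (0.69% of all genes were called on the same count). A dimmer probe set of Gpdh1, another of the 35, was also called (-3.27 ± 0.71, adjusted p = 0.0338). It stood at 6.76 and 7.54 in small ZT12 against 11.34 and 11.56 in small ZT0, and at 8.13, 7.85 and 7.21 in large ZT12 against 9.58, 7.72 and 9.0 in large ZT0. The brightest probe set of Gpdh1 gave -0.98 ± 0.51 (adjusted p = 0.504), and Gpdh1 was named after its values were seen.

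**Figure D3:**
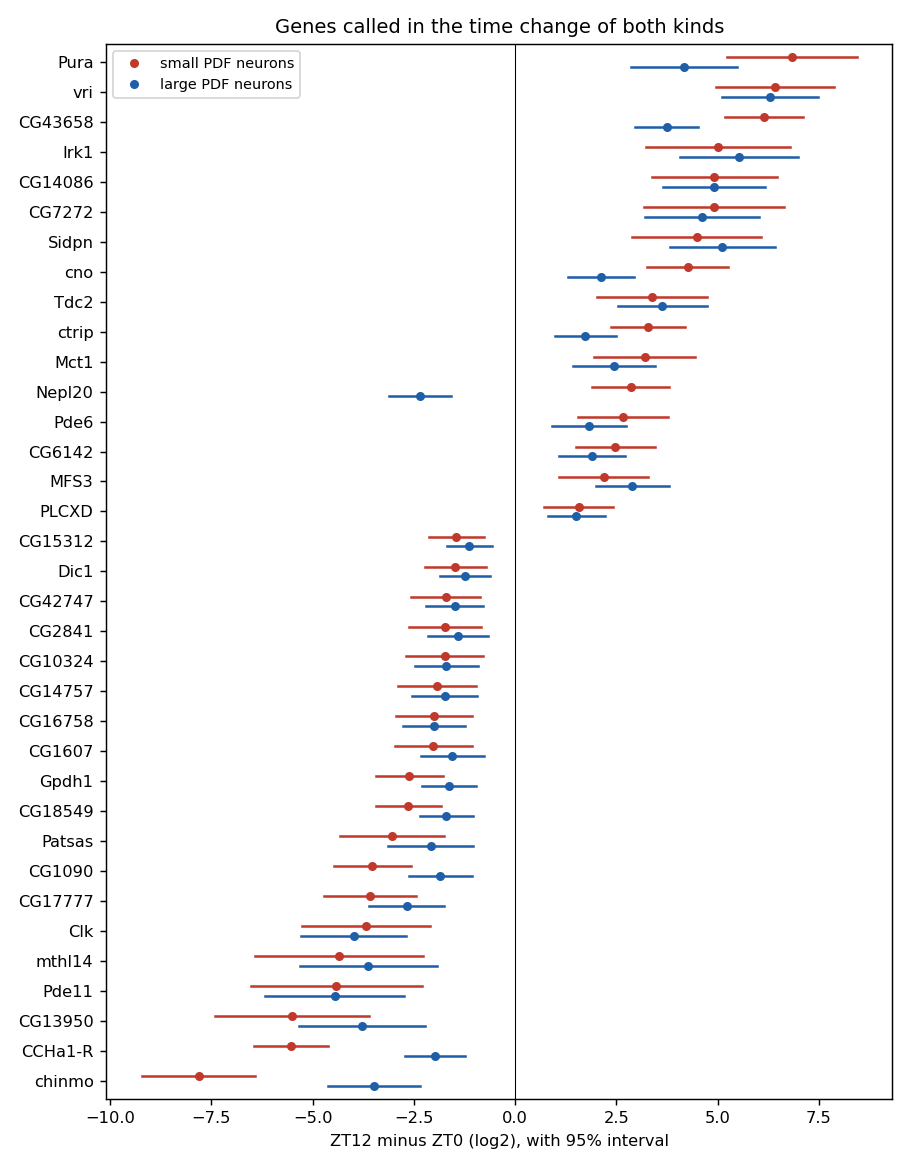
ZT12 minus ZT0 log2 difference with its 95% interval for the 35 genes called in both kinds, ordered by the small difference, small PDF neurons above large PDF neurons in each pair. Nepl20 alone has its 2 points on opposite sides of 0, at 2.85 in small and -2.35 in large neurons.

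Receptors for peptides and transmitters held 3 of the interaction calls, 1 positive and 2 negative among 21 measured (0.69% of all genes were called when each gene was counted once). Dh31-R, the receptor of the peptide DH31, was at 11.82 and 12.29 in small ZT12 and at 7.61 and 6.05 in small ZT0. In large neurons it was at 11.44, 12.06 and 11.62 at ZT12 and at 10.37, 10.73 and 10.78 at ZT0. The small ZT0 arrays were thus the low ones, and small ZT12 reached the large level. Dh31-R rose by 5.22 ± 0.58 in small neurons, its large difference was 1.08 ± 0.47 (adjusted p = 0.251), and the interaction was 4.14 ± 0.75 (adjusted p = 0.0123). At ZT12 the kinds differed by 0.35 (adjusted p = 0.772), and at ZT0 small neurons were lower by 3.80 on the log2 scale (difference -3.80, adjusted p = 0.000176). The adjusted p of the interaction was 0.0749 without small ZT0 replicate 2, and the dimmer probe set of the gene gave an interaction of 1.34 (adjusted p = 0.505).

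CCHa1-R, the receptor of CCHamide-1, moved the other way. It stood at 2.93 and 2.68 in small ZT12, against 8.77 and 7.92 in small ZT0, and at 2.76, 2.72 and 2.84 in large ZT12, against 5.67, 4.24 and 4.36 in large ZT0. All 5 ZT12 arrays were thus at background, and the ZT0 arrays were clear of it in small neurons only. It fell in small neurons, at least 10.2-fold when values under 5 are raised to 5, and it fell in large neurons by 1.98 (adjusted p = 0.00657), a change that lies mostly under 5. The interaction was -3.56 ± 0.56 (adjusted p = 0.00418) and kept its call without any single array.

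The metabotropic glutamate receptor mGluR was at 3.56 and 3.13 in small ZT12, against 5.99 and 5.38 in small ZT0, and at 2.41 to 2.45 on all 6 large arrays. Its interaction of -2.34 ± 0.49 (adjusted p = 0.0291) was lost without small ZT0 replicate 1 (adjusted p = 0.142) and in 6 other fits that left out 1 array. Other receptors had a time change called in one kind and no interaction call, which does not show that the kinds differ. In small neurons NPFR, GABA-B-R3, Pdfr and TkR86C rose, by 2.61, 4.70, 1.93 and 1.48, with interactions of 2.32 (adjusted p = 0.17), 3.06 (adjusted p = 0.435), 1.76 (adjusted p = 0.0834) and 0.50 (adjusted p = 0.799). Their large differences were 0.29 (adjusted p = 0.786), 1.64 (adjusted p = 0.358), 0.18 (adjusted p = 0.795) and 0.98 (adjusted p = 0.124). GABA-B-R3 and Pdfr lay at background in large neurons, so their large differences and interactions include background. The large means were 4.83 at ZT12 and 3.19 at ZT0 for GABA-B-R3, and 2.59 and 2.42 for Pdfr. In large neurons the dopamine receptor Dop1R1 fell by 4.14 and the octopamine receptor Octbeta1R rose by 2.31, with interactions of 1.93 (adjusted p = 0.666) and 0.23 (adjusted p = 0.96), and their small differences were -2.21 (adjusted p = 0.373) and 2.54 (adjusted p = 0.0651). These 6 were named after their values were seen, except Dop1R1.

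The peptide-processing list had 1 interaction call among 11 genes, where 0.69% of all genes were called. The gene was amon, which encodes the prohormone convertase that cleaves neuropeptide precursors. It was at 13.26 and 12.70 in small ZT12 against 14.50 and 14.18 in small ZT0, and at 14.19, 14.25 and 14.45 in large ZT12 against 13.47, 13.26 and 13.72 in large ZT0. The small neurons were thus low and the large neurons high at ZT12, and all values lay far above background. It fell by 1.36 in small neurons (adjusted p = 0.0296), the large difference was 0.81 (adjusted p = 0.127) and the interaction was -2.17 ± 0.43 (adjusted p = 0.0215). Without small ZT0 replicate 1 the adjusted p was 0.0933.

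Fur2, a furin-type protease gene of the same list, fell by 4.38 in small neurons, with an interaction of -3.23 ± 0.85 (adjusted p = 0.0913). Among 19 neuropeptide genes none was called in the interaction, where 0.69% of all genes were called, so that 0 is near the background. In small neurons Dh44 rose by 4.90 and sNPF fell by 5.04, with interactions of 3.27 (adjusted p = 0.329) and -4.47 (adjusted p = 0.306). The large means of sNPF, 3.90 at ZT12 and 4.47 at ZT0, lay at background. Fur2, Dh44 and sNPF were named after their values were seen.

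Among regulators of transcription, chinmo, a BTB zinc-finger gene of neuronal identity, had the largest small fall. It stood at 4.69 and 4.29 in small ZT12, against 12.11 and 12.51 in small ZT0, and at 7.56, 6.86 and 5.17 in large ZT12, against 10.16, 9.97 and 9.90 in large ZT0. It fell in both kinds, at least 159-fold in small neurons and by 3.48 in log2 units in large neurons, and the interaction was -4.34 ± 0.86 (adjusted p = 0.0215). Small neurons were higher at ZT0 (2.30, adjusted p = 0.0228) and lower at ZT12 (-2.04, adjusted p = 0.0471). The adjusted p was 0.094 without small ZT0 replicate 2, and a second probe set gave -2.93 ± 1.03 (adjusted p = 0.249).

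The nuclear receptor gene Hr38, which is induced by neuronal activity, had 2 probe sets. The brighter stood at 4.36 and 7.0 in small ZT12, against 11.74 and 10.62 in small ZT0, and between 2.78 and 5.38 on the large arrays. Its interaction was -6.01 ± 1.38 and missed the threshold (adjusted p = 0.0526). The dimmer probe set was called (-3.51 ± 0.66, adjusted p = 0.0154). It was at 3.66 and 3.85 in small ZT12, against 7.80 and 6.95 in small ZT0, and at 3.11 to 4.35 on the large arrays. In the same list of activity-regulated genes, sr fell in small neurons by 3.30 (interaction -3.45, adjusted p = 0.114) and cbt rose in large neurons by 2.61 (interaction -2.39, adjusted p = 0.136), both named after their values were seen.

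The kinase gene Dyrk2 stood at 8.54 and 6.67 in small ZT12, against 13.02 and 12.30 in small ZT0, while the 6 large arrays lay between 8.55 and 10.04. It fell by 5.05 in small neurons and the large difference was -0.48 (adjusted p = 0.718), with an interaction of -4.57 ± 0.93 (adjusted p = 0.0245). jeb, which encodes the secreted ligand of the receptor kinase Alk, was at 8.15 and 7.67 in small ZT12 against 11.13 and 9.98 in small ZT0, and at 7.79, 7.35 and 7.88 in large ZT12 against 4.88, 6.86 and 5.51 in large ZT0. The kinds had like levels at ZT12 (difference 0.24, adjusted p = 0.89), and small neurons were higher by 4.81 at ZT0. Its interaction was -4.57 ± 0.91 (adjusted p = 0.0218). Without small ZT0 replicate 1 the adjusted p was 0.107 for Dyrk2 and 0.115 for jeb.

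In sprouty (sty), an inhibitor of receptor tyrosine kinase signalling, the probe set called was at 9.17 and 8.87 in small ZT12 against 10.10 and 9.30 in small ZT0, and at 8.87, 9.75 and 8.35 in large ZT12 against 6.15, 5.36 and 7.10 in large ZT0. It rose by 2.79 in large neurons (adjusted p = 0.00311), the small difference was -0.68 (adjusted p = 0.716) and the interaction was -3.47 ± 0.73 (adjusted p = 0.0291). A second probe set of sty gave -1.10 in small (adjusted p = 0.62) and 0.90 in large neurons (adjusted p = 0.47), with an interaction of -2.00 ± 0.95 (adjusted p = 0.459). The call was lost in 6 of 10 fits that left out 1 array, with an adjusted p of up to 0.135 (without small ZT0 replicate 1).

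Cbp53E, a calcium-binding protein gene of the calbindin type, fell by 2.18 in small neurons, against a large difference of 1.65 (adjusted p = 0.0668). Its arrays stood at 11.09 and 8.56 in small ZT12, 11.91 and 12.10 in small ZT0, 11.64, 12.09 and 11.52 in large ZT12 and 10.38, 9.73 and 10.18 in large ZT0. The interaction was -3.83 ± 0.72 (adjusted p = 0.015), and 0.0664 was the adjusted p without small ZT0 replicate 2. For qvr, which encodes the Ly6-type protein Sleepless that acts on Shaker channels, the called probe set gave -3.54 ± 0.76 (adjusted p = 0.0338) at levels between 3.05 and 6.31. The brightest probe set of qvr, between 7.65 and 9.34, gave 0.06 ± 0.54 (adjusted p = 0.983), so the 2 probe sets disagree. The called one lost its call in 6 of 10 fits that left out 1 array (small ZT0 replicate 2 gave the highest adjusted p when left out, 0.192).

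Nepl20, of the neprilysin-like metallopeptidases, was the only probe set called in opposite directions in both kinds. It was at 5.88 and 6.08 in small ZT12 against 3.04 and 3.22 in small ZT0, and at 3.33, 3.03 and 3.32 in large ZT12 against 6.31, 5.42 and 5.0 in large ZT0. No array of one time overlapped the other in either kind. It rose in small neurons at least 1.97-fold and fell in large neurons at least 1.49-fold, and the interaction was 5.21 ± 0.58 (adjusted p = 0.00016). It kept its call without any single array and in the fit of the 10 arrays alone (adjusted p = 0.0211).

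The dipeptidyl peptidase gene ome was at 5.76 and 6.56 in small ZT12 against 10.30 and 10.20 in small ZT0, and at 7.05, 5.82 and 2.91 in large ZT12 against 3.38, 3.27 and 3.13 in large ZT0. It fell by 4.09 in small neurons and the large difference was 2.00 (adjusted p = 0.183), with the most negative interaction, -6.09 ± 1.22 (adjusted p = 0.0218). Pgant9, which starts mucin-type O-glycosylation, rose in large neurons by 3.94 (adjusted p = 0.00445) against a small difference of -1.79 (adjusted p = 0.357). Its arrays were at 6.23 and 5.88 in small ZT12, 8.06 and 7.64 in small ZT0, 8.11, 9.41 and 7.35 in large ZT12 and 4.93, 5.10 and 3.01 in large ZT0. The interaction of Pgant9 was -5.73 ± 1.06 (adjusted p = 0.014). Leaving out 1 array raised the adjusted p to 0.0965 for ome (small ZT12 replicate 1) and to 0.0547 for Pgant9 (small ZT0 replicate 1).

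Among the remaining genes at 5 or more in both kinds, CG8401 was at 10.01 and 9.62 in small ZT12 against 6.26 and 3.74 in small ZT0, and at 9.35, 9.94 and 10.45 in large ZT12 against 11.07, 11.06 and 10.84 in large ZT0. Its interaction of 5.89 ± 0.91 (adjusted p = 0.0036) was the largest of this class. In ELAV neurons CG8401 averaged 14.89 at ZT12 and 14.51 at ZT0, above the PDF neurons, and the part of other cells was not tested. CG7985 was at 12.21 and 11.88 in small ZT12 against 7.96 and 7.0 in small ZT0, with large arrays between 7.76 and 9.85, so that small ZT12 stood above every other array. Its interaction was 3.90 ± 0.66 (adjusted p = 0.00777). GAPsec, a GTPase activating protein gene, rose by 2.73 in small neurons and the large difference was -1.87 (adjusted p = 0.0546), with an interaction of 4.60 ± 0.77 (adjusted p = 0.00722). For ko the large neurons fell, at least 2.29-fold, the small difference was 2.00 (adjusted p = 0.0791) and the interaction was 4.50 ± 0.77 (adjusted p = 0.00781). CG8401, CG7985, GAPsec and ko kept their calls without any single array, as did Nepl20 above and CG32206, which fell by 4.24 in small neurons (interaction -3.52 ± 0.58, adjusted p = 0.00712).

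The other 5 named here did not keep them. The interaction was 5.07 ± 0.94 for CG10479 (adjusted p = 0.014, or 0.0693 without small ZT0 replicate 2) and 4.39 ± 0.94 for CG13097 (0.0338, or 0.174 without small ZT0 replicate 2). It was 3.68 ± 0.78 for CG42337 (adjusted p = 0.0305, or 0.192 without small ZT0 replicate 2) and 3.15 ± 0.66 for CG15382 (0.0291, or 0.153 without small ZT12 replicate 1). CG9171 rose by 2.33 in large neurons, with an interaction of -3.65 ± 0.67 (adjusted p = 0.0136, or 0.0693 without small ZT0 replicate 2).

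**Figure D4:**
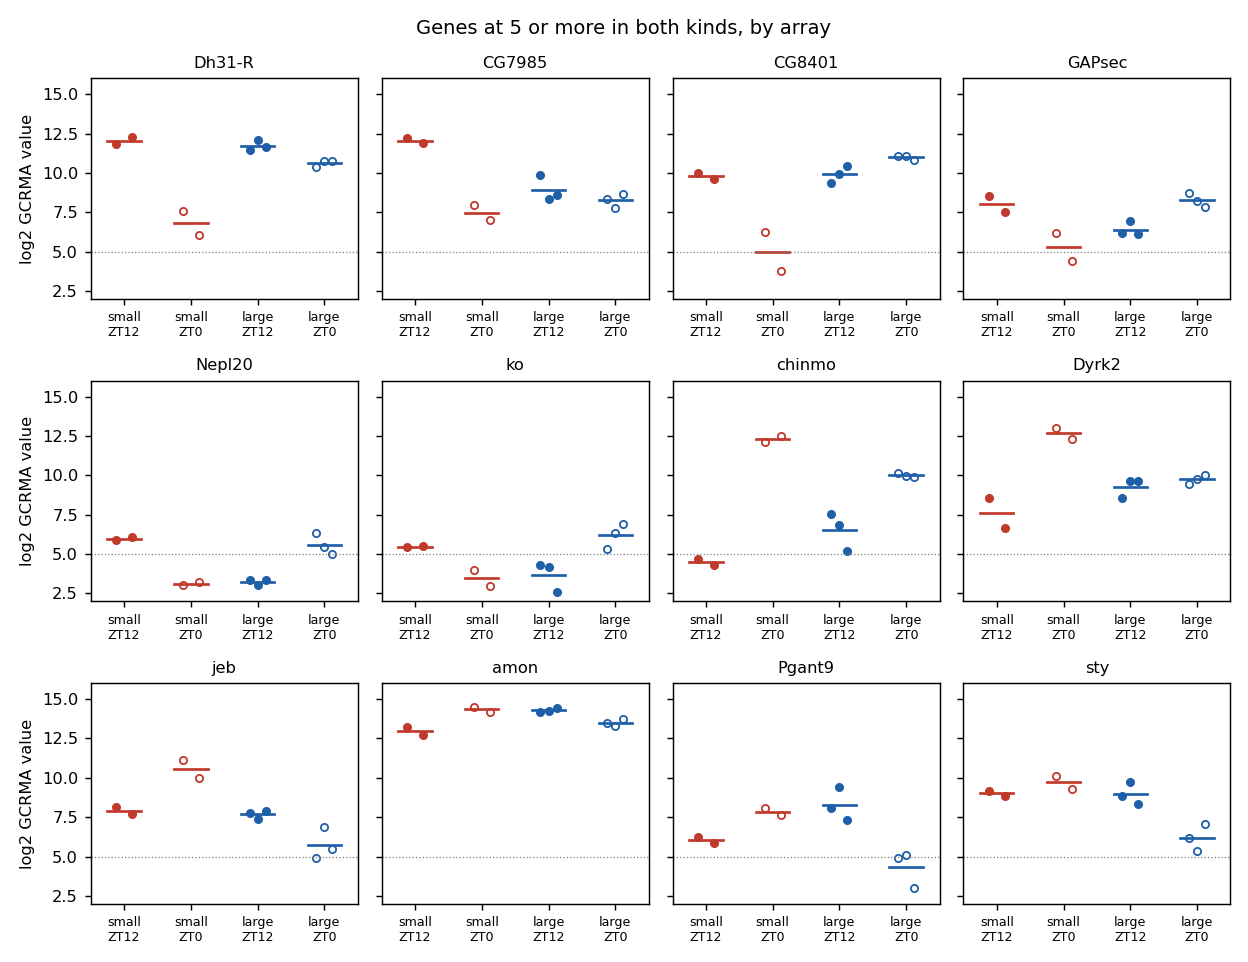
Log2 GCRMA value on each array for 12 genes at 5 or more in both kinds, small PDF neurons in red and large PDF neurons in blue, ZT12 filled and ZT0 open, with group means as bars and a dotted line at 5. Dh31-R, CG8401 and Dyrk2 show their outlying group in small ZT0, sty shows it in large ZT0, and Nepl20 crosses over between the kinds.

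The second class was at background in one kind. Its 25 calls held 23 that reached 5 in small neurons only. In 7 of these the level was higher at ZT12, with ZT12 means from 5.33 to 11.09, and all 7 were called as rises in small neurons. In 6 of the 7 both small ZT0 arrays lay under 5, and in all 7 the 6 large arrays did. In 16 the level was higher at ZT0, with ZT0 means from 5.47 to 9.73, and 15 of them were called as falls in small neurons. Both small ZT12 arrays lay under 5 in 15 of the 16, and all 6 large arrays in 14. The large ZT6 and ZT18 means of the 23 were under 5 as well. The ELAV neurons reached 5 in 2 of the 7 and in 1 of the 16.

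CG31675, a gene of the Ly6 type, gave the largest interaction. It was at 10.23 and 11.94 in small ZT12, against 4.02 and 3.70 in small ZT0, and between 3.38 and 3.80 on the 6 large arrays. The small ZT12 arrays alone were clear of background, and the interaction was 7.06 ± 0.51 (adjusted p = 5.05e-07). E(spl)m6-BFM, a Bearded-family gene of the Notch-responsive Enhancer of split complex, was at 8.16 and 8.12 in small ZT12, against 2.86 and 3.43 in small ZT0, and between 2.96 and 3.44 on the large arrays. It rose at least 8.84-fold in small neurons (interaction 4.95 ± 0.38, adjusted p = 7.39e-07). Both kept their calls without any single array and in the fit of the 10 arrays alone (adjusted p = 0.00998 for each).

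The vesicular monoamine transporter gene Vmat was at 9.70 and 7.05 in small ZT12, against 2.43 and 2.55 in small ZT0, and between 2.47 and 3.56 on the large arrays. The interaction was 5.86 ± 0.81 (adjusted p = 0.00146) and held without any single array. Its SE comes from the spread pooled over all groups, most of which lay at background for Vmat, while the small ZT12 arrays were far apart. Vmat was not among the calls when the 10 arrays were fitted alone. Of 3 other probe sets of Vmat, one gave 2.90 (adjusted p = 0.17) and the others 0.69 and 0.26, at means under 5. Vmat averaged 14.7 in ELAV neurons at each time. Among the other monoamine markers, ple, which makes the dopamine precursor, was at or below 4.24 on all 10 arrays. The dopamine transporter DAT was at 7.52 and 6.56 in small ZT12, against 5.72 and 8.39 in small ZT0, with overlap. The serotonin transporter SerT was at 7.57 and 5.20 in small ZT12, against 4.88 and 3.98 in small ZT0. Ddc, which makes dopamine and serotonin from their precursors, was at 11.07 and 10.60 in small ZT12, against 10.25 and 9.90 in small ZT0, and at 11.68, 11.25 and 12.23 in large ZT12, against 10.58, 10.37 and 10.68 in large ZT0. ZT12 was thus above ZT0 in both kinds, with no overlap. The part of other cells in the Vmat value was not tested.

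CG9338, also of the Ly6 type, was at 10.09 and 10.36 in small ZT12, against 4.44 and 6.89 in small ZT0, with large arrays between 2.43 and 4.60. Its interaction was 5.11 ± 1.07 (adjusted p = 0.0291, or 0.164 without small ZT0 replicate 1). CG34353 rose at least 6.86-fold in small neurons (interaction 3.34 ± 0.63, adjusted p = 0.0149, or 0.0684 without small ZT12 replicate 1), and its other 3 probe sets gave 2.64 to 3.47 without a call. CG33958 was at background in small neurons. It was at 4.49, 4.33 and 4.42 in large ZT12, against 6.93, 7.14 and 6.70 in large ZT0, and fell at least 3.79-fold in large neurons. The interaction was 3.09 ± 0.59 (adjusted p = 0.0165, or 0.074 without small ZT12 replicate 2).

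In the 16 negative calls that reached 5 in small neurons only, transcripts were present in small neurons at ZT0. CG34325 was at 5.47 and 3.60 in small ZT12, against 10.29 and 9.18 in small ZT0, with large arrays between 2.94 and 3.65 (interaction -5.41 ± 0.83, adjusted p = 0.0036). Rcd2 was at 3.41 and 3.05 in small ZT12, against 7.89 and 7.69 in small ZT0, and fell at least 6.91-fold (interaction -4.12 ± 0.60, adjusted p = 0.00224). hlk was at 2.70 and 2.79 in small ZT12, against 5.78 and 7.44 in small ZT0 (interaction -3.91 ± 0.50, adjusted p = 0.00073). These 3 genes held their calls without any single array. Without small ZT0 replicate 2 the call of CG34342 (-4.94 ± 0.99, adjusted p = 0.0218) was lost (adjusted p = 0.147).

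DIP-iota, of the family that binds Dpr proteins, was at 2.77 and 2.59 in small ZT12, against 6.56 and 5.69 in small ZT0, and between 2.43 and 2.77 on the large arrays. It fell at least 2.18-fold in small neurons, with an interaction of -3.55 ± 0.46 (adjusted p = 0.00073) that held without any single array. The guidance gene beat-IIa was at 3.69 and 4.57 in small ZT12 against 5.56 and 6.44 in small ZT0, and at 4.86, 4.78 and 3.36 in large ZT12 against 3.20, 2.86 and 3.21 in large ZT0. Neither time change was called, and the interaction was -3.11 ± 0.67 (adjusted p = 0.0338, or 0.189 without small ZT0 replicate 2). In ELAV neurons beat-IIa averaged 9.95 at ZT12 and 9.74 at ZT0, and the part of other cells was not tested. This gene was the only call among 21 guidance and adhesion genes (0.69% of all genes were called). beat-Ic, named after its values were seen, rose by 3.08 in large neurons, with an interaction of -3.54 (adjusted p = 0.0978).

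**Figure D5:**
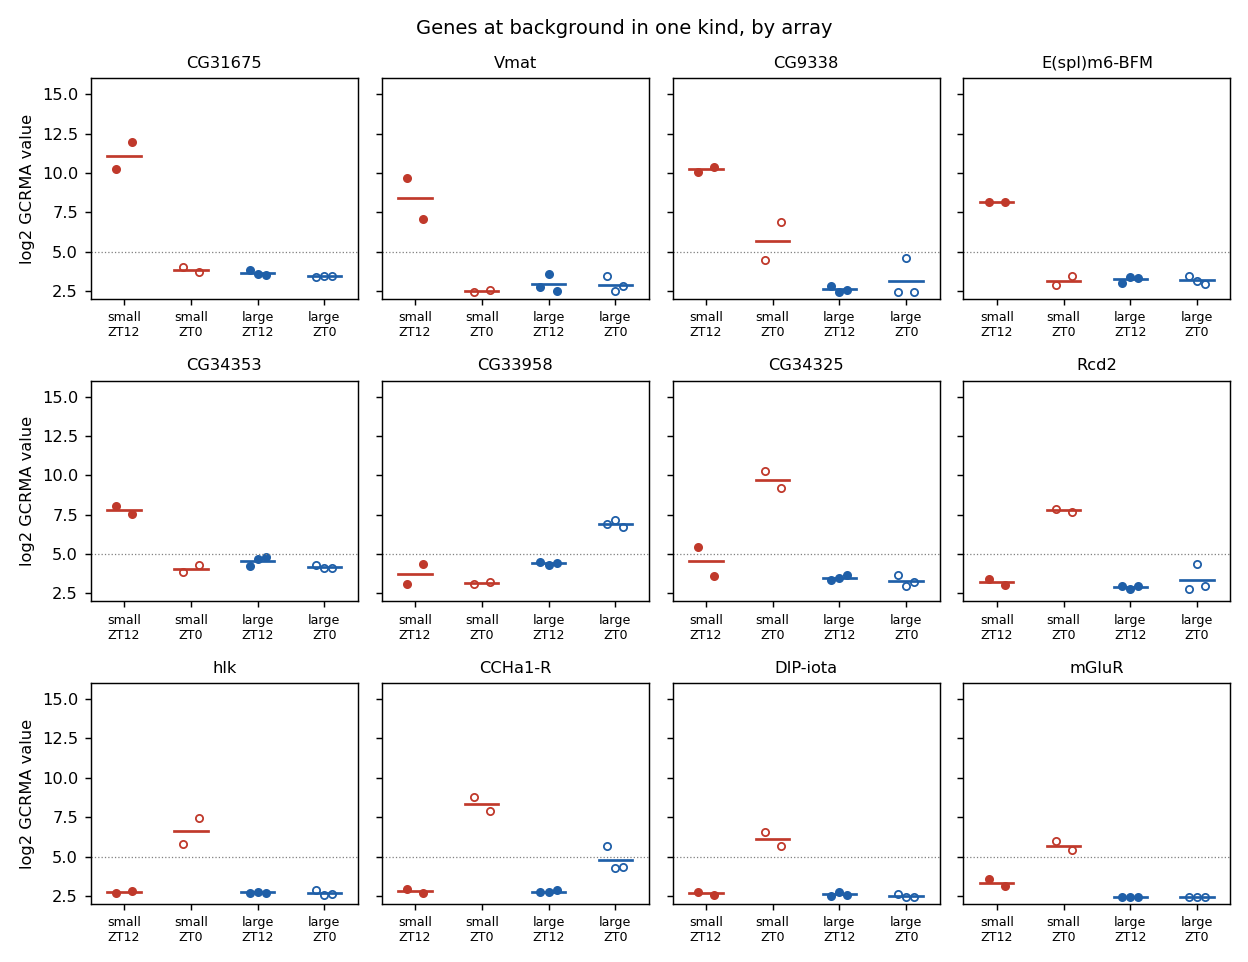
Log2 GCRMA value on each array for 12 genes at background in one kind, small PDF neurons in red and large PDF neurons in blue, ZT12 filled and ZT0 open, with group means as bars and a dotted line at 5. CG31675 and E(spl)m6-BFM stand above 8 only in small ZT12, CCHa1-R and Rcd2 stand above 7 only in small ZT0, and CG33958 is above 5 only in large ZT0.

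No interaction was called among 56 respiratory chain and ATP synthase genes, 31 cytosolic and 69 mitochondrial ribosomal protein genes, 27 proteasome subunits, 38 translation factors, 17 vacuolar ATPase subunits, 18 Rab GTPases, 20 lysosome and autophagy genes or 14 heat shock proteins and chaperones, against 0.69% of all genes. Of the 56 respiratory genes, 8 fell in small neurons (2.07% of all genes did) and 1 fell in large neurons (1.26% of all genes did), and none rose. Their median difference was -0.93 in small and -0.52 in large neurons, against -0.01 and -0.03 over all probe sets, and their median interaction was -0.24. The ATP synthase subunit gene ATPsyngamma stood at 11.86 and 11.68 in small ZT12, against 13.18 and 13.03 in small ZT0, and between 12.05 and 12.76 on the large arrays. It fell by 1.34 in small neurons and its interaction was -1.12 ± 0.40 (adjusted p = 0.259). Of the 69 mitochondrial ribosomal genes, 3 fell in small and 1 fell in large neurons, with median differences of -0.69 and -0.39.

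Among excitability and synaptic genes the interaction was called for 0 of 15 potassium channels, 0 of 13 sodium, calcium and cation channels, 0 of 14 ionotropic receptors, 0 of 19 synaptic vesicle and active zone genes, 0 of 13 genes of cAMP and calcium signalling and 0 of 12 arbor and cytoskeleton genes. Of all genes 0.69% were called, so that counts of 0 in lists of this size are near the background. The smallest adjusted p in each was 0.257 for the potassium channel sand (3.38), 0.243 for the channel regulator unc80 (-1.91), 0.562 for Nmdar1 (0.93), 0.137 for Sytalpha (-2.59), 0.269 for the adenylyl cyclase Ac13E (-1.21) and 0.101 for Timp, a metalloprotease inhibitor (4.15). Some members had a time change called in one kind. The cation channel gene Trpm rose by 3.73 and Sytbeta by 2.62 in small neurons, Ac13E fell by 1.73 and Epac by 3.39 in small neurons, and Pka-R1 rose by 1.90 in large neurons. Epac lay at background in large neurons, with means of 3.98 at ZT12 and 4.69 at ZT0. Trpm, Sytbeta, Epac and Pka-R1 were named after their values were seen.

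None of the 58 probe sets was called in the ZT12 minus ZT0 difference of ELAV neurons, where 2 of 8318 were called (0.024%), or of large PDF neurons from per01 flies, which lack a working per gene, where 1 was called (0.012%). The difference between these changes and those of small neurons was not tested. Of the 58, 19 kept their call in each of the 10 fits that left out 1 array, 6 of the class at 5 or more in both kinds and 13 of the class at background in one kind, and all 58 kept their sign. The spread was pooled over all groups, with those at background among them. The SE in the class at background in one kind therefore need not describe the group that was above background.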

How the data were processed

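The authors deposited log2 GCRMA values per probe set of Affymetrix fly arrays, and the submitters' processing notes name GCRMA and R 2.6. That method subtracts background, equalises the distributions of arrays and combines probes. The sources used here do not say which arrays it was run on together. Hand-picked pools and 2 rounds of amplification can add variation between arrays, and values under log2 5 are mostly background.

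After control probe sets were dropped, 8318 of 18769 probe sets with log2 of at least 5 on at least 2 of 24 arrays were tested. Of these, 7217 carry 1 gene symbol, for 6663 genes. limma 3.58.1 (R 4.3.3) fitted a mean per group of cell kind, genotype and time over all 24 arrays (with 14 residual and 3.62 prior degrees of freedom behind the spread). The p values were adjusted by Benjamini and Hochberg over all probe sets within a contrast, and called below 0.05. The procedure was tested on simulated data. Interactions were seeded in 100 probe sets each at log2 2 and log2 4. Of these, 15% and 68% were recovered, with 7 false calls. A missing call is thus weak evidence that an interaction is absent. Replicates are biological per the labels, and no batch is given. Every comparison uses the same arrays, so the interaction, the time changes and the differences between kinds are not independent.

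A fold given as "at least" raises values under 5 to 5, and is given only if it stays within 1.5 times when any 1 array is dropped. "Rose" and "fell" are used of called changes. Named genes are clock genes, the largest interactions in each class (10 each way, or 6 each way at background in one kind), called members of each list or the member with the smallest p, and the largest shared and single-kind changes. In lists and for clock genes the brightest probe set of a gene over all arrays was used. The genes, classes and lists were chosen with earlier results of these data known, and genes that a name pattern had wrongly matched (names ending in -like in the ribosomal list, regulators of Rab3 in the Rab list) were taken out after results were seen. Alternatives were other filters, a floor, 2 scalings, fewer arrays in the fit, trend and robust moderation, array weights, a replicate block, another threshold, 1 probe set per gene, another class rule and leaving out each array. No sequences are given, as none were used here.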

Additional observations from a re-analysis of the deposited data

Results flagged for a closer look

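All results of this kind are differences between the small and the large time change that passed the test of that difference, which is the comparison of the report itself. Groups of 2 and 3 arrays are too few to ask whether 1 array stands apart. Among genes at 5 or more in both kinds, the interaction (small minus large, log2) was 5.89 for CG8401, 5.21 for Nepl20, 5.07 for CG10479, 4.60 for GAPsec, 4.50 for ko, 4.39 for CG13097, 4.14 for Dh31-R, 3.90 for CG7985, 3.68 for CG42337 and 3.15 for CG15382. It was -6.09 for ome, -5.73 for Pgant9, -4.57 for Dyrk2, -4.57 for jeb, -4.34 for chinmo, -3.83 for Cbp53E, -3.65 for CG9171, -3.54 for qvr, -3.52 for CG32206, -3.47 for sty and -2.17 for amon. Among genes at background in one kind it was 7.06 for CG31675, 5.86 for Vmat, 5.11 for CG9338, 4.95 for E(spl)m6-BFM, 3.34 for CG34353 and 3.09 for CG33958. On the negative side of that class it was -5.41 for CG34325, -4.94 for CG34342, -4.12 for Rcd2, -3.91 for hlk, -3.56 for CCHa1-R, -3.55 for DIP-iota, -3.11 for beat-IIa and -2.34 for mGluR.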

How the results depend on the processing

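No called interaction of a named gene changed sign under any alternative run. Counted over the named genes and all alternatives, 1425 values stayed on their side of the threshold, 165 lost the call and 17 gained it. Only 35 of the 77 named genes were called and could lose a call, so the 1425 include many uncalled values that stayed uncalled. With the 10 arrays alone, 32 of the 35 lost their call. The counts of calls moved as well. For the interaction, 58 calls became 110 (43 positive, 67 negative) with values under 5 raised to 5, 5 (4 and 1) with the 10 arrays alone, 30 (12 and 18) with the replicate number as a block and 141 (59 and 82) at an adjusted p below 0.1. In the same order, the class at 5 or more in both kinds (32) became 63, 1, 14 and 93, and 53 with trend and robust moderation. The class at background in one kind (25) became 47, 4, 16 and 46, and 15 with trend and robust moderation, 10 with a filter at log2 7 and 16 with classes set by the mean over both times. Small time changes (282) became 92 (46 and 46) with the 10 arrays alone and 430 at an adjusted p below 0.1. Large time changes (182) became 12 (10 and 2) with the 10 arrays alone, 288 with trend and robust moderation, 118 with the block and 417 at an adjusted p below 0.1. Leaving out 1 array gave 42 to 76 interaction calls, 16 to 36 and 19 to 39 in those classes, 133 to 324 small and 116 to 221 large calls. The class of both kinds had 16 without small ZT0 replicate 2, the class of one kind 39 without large ZT0 replicate 1, and the interaction split was 38 and 38 without large ZT0 replicate 1. Arrays of the same replicate number did not deviate together (r of -0.03 in small neurons and 0.00 to 0.06 in large neurons), so the replicate block, under which 27 of the 58 calls were shared, has no known pairing behind it. The 58 shared 52 calls with quantile normalization, 47 with the 20 wild-type arrays, 42 with array weights, 42 with the floor and 40 with trend and robust moderation. The cause of these differences was not tested. Few arrays per group and values near background limit the precision.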

Other observations

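CG31675, CG9338 and qvr belong to the Ly6 type, small proteins held at the cell surface. A list of Ly6-type genes was therefore drawn up after these values were seen, so no test applies to it. Of its 15 genes, 12 were tested, and the interaction was called positive for 2 (CG31675 and CG9338) and negative for 0, when each gene was counted by its brightest probe set. Both had prompted the list, so nothing is read from this count beside the 0.69% of all genes that were called. CG14401 was at 10.06 and 10.51 in small ZT12, against 5.24 and 3.30 in small ZT0, and between 2.71 and 5.29 on the large arrays. It rose by 6.02 in small neurons and its interaction of 5.23 ± 1.35 missed the threshold (adjusted p = 0.0908). bero was at 6.13 and 7.30 in small ZT12, against 4.62 and 5.74 in small ZT0, and at 2.36, 3.17 and 2.38 in large ZT12, against 4.89, 9.40 and 5.36 in large ZT0. It fell by 3.91 in large neurons (interaction 5.45 ± 1.38, adjusted p = 0.0897), and its highest value lies on the large array with Gs2 at 9.53. The interactions of twit (1.95), crim (2.46), CG6583 (-0.46) and cold (-1.71) were not called.

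The largest changes of single kinds were not all interaction calls. In small neurons Pura, a gene tied to remodelling of the small neurons' axon terminals, rose by 6.83, and in large neurons by 4.17 (interaction 2.66, adjusted p = 0.292). CG43658 rose by 6.15 in small and by 3.74 in large neurons (interaction 2.41, adjusted p = 0.0735). SkpB, of the ubiquitin ligase subunit family of Skp1, was at 2.93 and 2.55 in small ZT12, against 8.22 and 8.49 in small ZT0, with large arrays between 2.67 and 4.02, and its interaction was -5.18 (adjusted p = 0.109). It was among the 5 calls when the 10 arrays were fitted alone. In large neurons Drep3 rose by 5.40 (small difference 1.83, adjusted p = 0.305), CG11791 fell by 4.78 (small difference -1.97, adjusted p = 0.624) and CG4168 fell by 4.58 (small difference -0.06, adjusted p = 0.999). Their interactions were -3.57 (adjusted p = 0.124), 2.82 (adjusted p = 0.597) and 4.52 (adjusted p = 0.0682).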
